A study of Mus musculus with 45 samples.

Results

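Newly transcribed RNA was set against total RNA of the same cells after 60 min of labelling, in the first of the series' 60 min experiments, on 6 of the series' 45 arrays. The 6 were chosen by title: 3 arrays of newly transcribed RNA and 3 of total cellular RNA from the 60 min experiment whose titles lack the prefix 2F. Both groups came from NIH-3T3, an established line of mouse embryonic fibroblasts, so a single cell line was studied. Cells between passage 5 and passage 15 had been plated at 40% density 24 h earlier, stood at about 80% at the start, and received 200 µM 4-thiouridine (4sU) for 60 min. Both groups carried the 4sU and a title entry of 1 h mock, a word the labels do not explain. No genotype change, transgene or drug was named for either. A second 60 min experiment (2F, 3 arrays of each fraction, with the same dose, time and mock entry), newly transcribed and total RNA after 30 min at 500 µM 4sU (9 arrays each), the unlabelled RNA of this same experiment (3 arrays), and total RNA before and after 2 h of 5 µg/ml actinomycin D, which blocks transcription (3 arrays each), served for comparison. Nothing in the labels says whether replicates were separate cultures, so p-values measure only the spread between these arrays, which may be technical.

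4sU is a uridine analogue that living cells take up and build into the RNA they make while it is present. Its thiol group lets the labelled RNA be biotinylated and pulled out, which separates newly transcribed RNA from the unlabelled RNA that existed before. As background, a transcript with rapid turnover is renewed soon and is rich in the new fraction relative to its total amount, whereas a long-lived transcript is poor in it. In fibroblasts, mRNAs of early response transcription factors and of feedback regulators are known for rapid turnover, and those of metabolic enzymes for slow turnover.

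Each deposited value was an intensity on a linear scale, and comparisons used its log2. All arrays were brought to a like scale by the authors' processing, so a value of newly transcribed minus total RNA is relative to the other transcripts of the same fraction and is not an amount of RNA per cell. A probe set was tested where its mean log2 over the 6 arrays was 5 or more, an intensity of 32. A call needed a change of 2-fold or more and, in limma, an adjusted p (Benjamini-Hochberg) below 0.05. An error after ± is limma's standard error. It has n = 3 arrays in each group, but 9 for the values after 30 min, and fewer than 3 where arrays were left out. Each gene was read from 1 probe set, the one with the highest mean over the 45 arrays. Intensities were compared within a probe set and not between genes.

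The 6 arrays were less alike than the rest of the series: the median correlation of an array with the others of its group ran from 0.861 to 0.947, against 0.920 to 0.996 on the other 39 arrays. Newly transcribed replicate 1 correlated at 0.85 with each of its partners, which correlated at 0.98 with each other, and its Gapdh control probe sets differed by 3.07 on the log2 scale between the 3′ and the 5′ end, against at most 0.896 on the other 39. Total replicate 2 correlated at 0.88 and 0.93 with its partners, and its Actb control probe sets differed by 3.08 between the ends, against at most 1.54. The part of these 2 arrays in the results is therefore shown by a second fit on the other 4 arrays, called the 4-array fit. It was added after the data had been seen and has only 2 arrays in each group. Every fibroblast marker listed was above an intensity of 32 in both fractions (12 of 12, with summed intensities of 68864 to 90405 in total RNA), while 0 of 5 epithelial, 1 of 6 leukocyte and 0 of 4 endothelial and muscle markers were. The exception was Cd14, a lipopolysaccharide co-receptor.

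**Figure D1:**
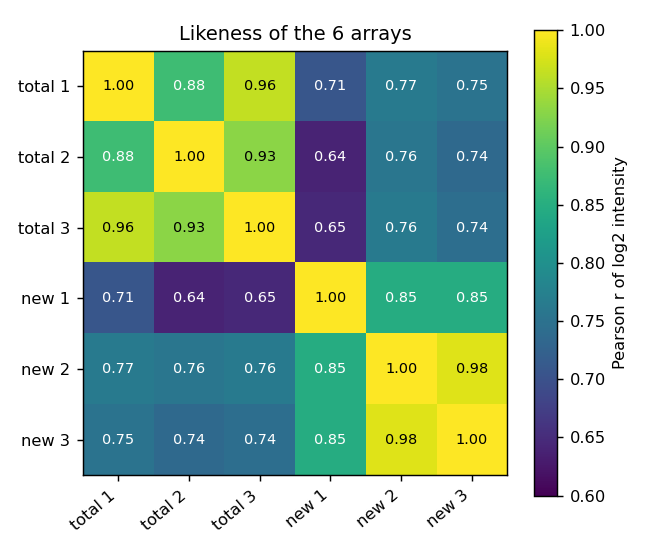
Pearson correlation of log2 intensity between each pair of the 6 arrays, with total RNA ("total") and newly transcribed RNA ("new") numbered by replicate; colour and printed value give r. Newly transcribed replicate 1 reached 0.85 with its own group, and the 2 fractions correlated at 0.64 to 0.77.

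The comparison asks which transcripts were renewed most within the hour relative to their amount. Of 15505 probe sets tested, 2711 (17.5%) were called higher in newly transcribed RNA and 2500 (16.1%) lower. The 2 groups did not overlap in 50.1% of the probe sets tested. Counted over genes, 1147 of 8038 (14.3%) were called higher and 1550 (19.3%) lower, with a median log2 difference of -0.14 over all of them, and the groups of 50.9% did not overlap. The 4-array fit called 1475 genes higher (18.4%) and 2092 lower (26.1%) of 8022. The median standard error of a probe set was 0.40 with all 6 arrays, 0.28 with the 4, and 0.11 in the 2F experiment. Without total replicate 3 the calls fell to 1395 higher and 1092 lower probe sets, and without newly transcribed replicate 3 to 1723 and 1767.

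The changes were large. At 4-fold or more, 1104 probe sets were called higher and 949 lower, and at 16-fold or more 21 and 18. Probe sets with no gene symbol stood apart from the rest: 31.9% of 1421 were called higher and 5.49% lower, with a median log2 difference of 0.70, whereas those with 1 symbol gave 16.3% and 17.0%. They were also weaker in total RNA, with a median intensity of 71.2 against 183. The part of this lower intensity in their calls was not tested.

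**Figure D2:**
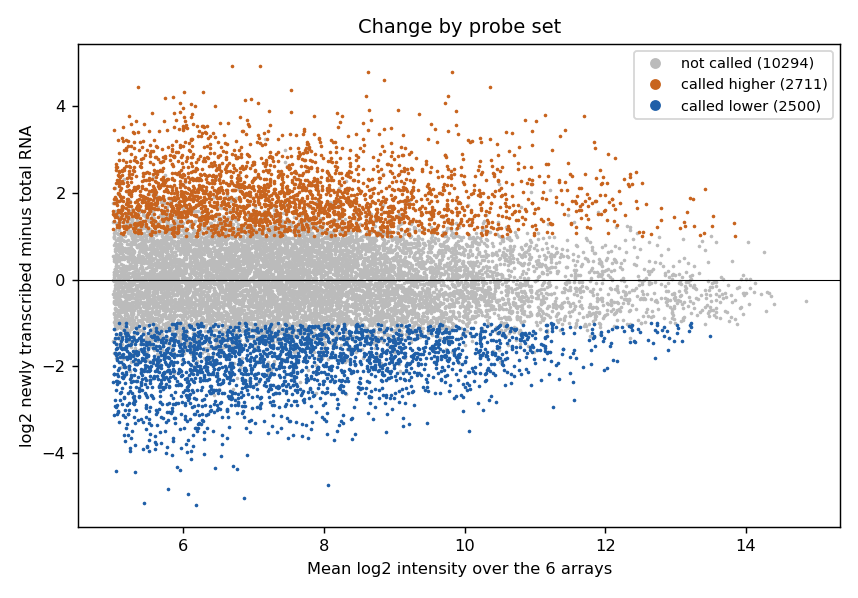
Difference in log2 intensity between newly transcribed and total RNA (y axis) against mean log2 intensity over the 6 arrays (x axis), 1 point for each of the 15505 probe sets tested. The 2711 called higher are in orange and the 2500 called lower in blue, and both lie across the whole range of intensities.

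Junb, Nfil3 and Ech1 show both directions. Junb encodes a subunit of the AP-1 transcription factor. Its intensity was 4779, 2697 and 4220 in newly transcribed RNA (replicates 1 to 3) and 609, 66.5 and 198 in total RNA. Every newly transcribed array was above every total array, although total replicates 1 and 2 were far apart. The log2 difference was 4.24 ± 0.72 (adjusted p = 0.00391), an 18.9-fold difference, and 3.28 ± 0.52 in the 4-array fit. Nfil3 encodes a bZIP repressor that binds the elements of clock-controlled genes. It read 1906, 1045 and 1534 in newly transcribed RNA and 156, 92.3 and 101 in total RNA, without overlap and with closer replicates, a difference of 3.68 ± 0.37 (adjusted p = 0.00166). Ech1, an isomerase of fatty acid oxidation in mitochondria and peroxisomes, ran the other way. Its intensity was 16.4, 25.7 and 10.3 in newly transcribed RNA, all under 32, and 443, 198 and 276 in total RNA, a difference of -4.15 ± 0.45 (adjusted p = 0.00182) that was -3.22 with an offset of 16 added before the log2. In the unlabelled RNA of the same experiment, Junb read 494, 349 and 585, Nfil3 147, 159 and 157, and Ech1 590, 510 and 539. Against the same total RNA arrays, unlabelled RNA differed by 1.22 ± 0.74 for Junb, 0.45 ± 0.24 for Nfil3 and 0.91 ± 0.30 for Ech1, none with an adjusted p under 0.05 (0.268, 0.221 and 0.0937).

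The same 3 genes were read on arrays that share no sample with these. In the 2F experiment the log2 difference was 1.96 ± 0.16 for Junb, 2.24 ± 0.15 for Nfil3 and -3.65 ± 0.17 for Ech1, and after 30 min of labelling 2.96 ± 0.22, 2.52 ± 0.15 and -3.17 ± 0.15. All 6 values passed the test. After 2 h of actinomycin D total RNA differed from that before by -1.97 ± 0.23 for Junb, -4.19 ± 0.15 for Nfil3 and 0.43 ± 0.11 for Ech1. The first 2 were called lower, and Ech1 stayed under the 2-fold threshold.

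The promoters of the 3 genes are shown because the 3 genes mark both directions, from 250 bases before to 50 bases after the annotated start, 5′ to 3′ on the gene's strand (RefSeq, GRCm38.p6). Capitals mark any match to the TATA box TATAAA, the CCAAT box CCAAT, the CRE octamer TGACGTCA or the CArG box, the element bound by SRF, each searched on both strands. Junb (chr8:84978699-84978998, minus strand) holds a CCAAT box 36 bases before the start and TATAAA at the annotated start. Nfil3 (chr13:52980990-52981289, minus strand) holds a CCAAT box on the opposite strand, and the window of Ech1 (chr7:28825088-28825387, plus strand) has none of the 4.
Junb: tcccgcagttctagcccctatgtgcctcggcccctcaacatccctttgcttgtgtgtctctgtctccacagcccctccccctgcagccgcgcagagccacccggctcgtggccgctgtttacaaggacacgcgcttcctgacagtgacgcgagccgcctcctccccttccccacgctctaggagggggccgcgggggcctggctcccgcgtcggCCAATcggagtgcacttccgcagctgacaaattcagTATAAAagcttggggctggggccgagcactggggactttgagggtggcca
Nfil3: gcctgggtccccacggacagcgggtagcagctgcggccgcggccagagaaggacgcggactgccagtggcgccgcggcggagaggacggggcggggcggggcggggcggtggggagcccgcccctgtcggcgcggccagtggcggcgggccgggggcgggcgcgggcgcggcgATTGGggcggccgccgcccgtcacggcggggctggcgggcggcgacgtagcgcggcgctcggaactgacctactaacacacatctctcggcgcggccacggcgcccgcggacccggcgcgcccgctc
Ech1: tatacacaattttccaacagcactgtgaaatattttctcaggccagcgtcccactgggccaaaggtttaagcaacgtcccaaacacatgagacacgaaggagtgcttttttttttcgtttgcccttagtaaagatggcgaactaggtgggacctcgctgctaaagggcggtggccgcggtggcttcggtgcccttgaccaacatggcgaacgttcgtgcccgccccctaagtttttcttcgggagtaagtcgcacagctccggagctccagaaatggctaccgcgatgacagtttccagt

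**Figure D3:**
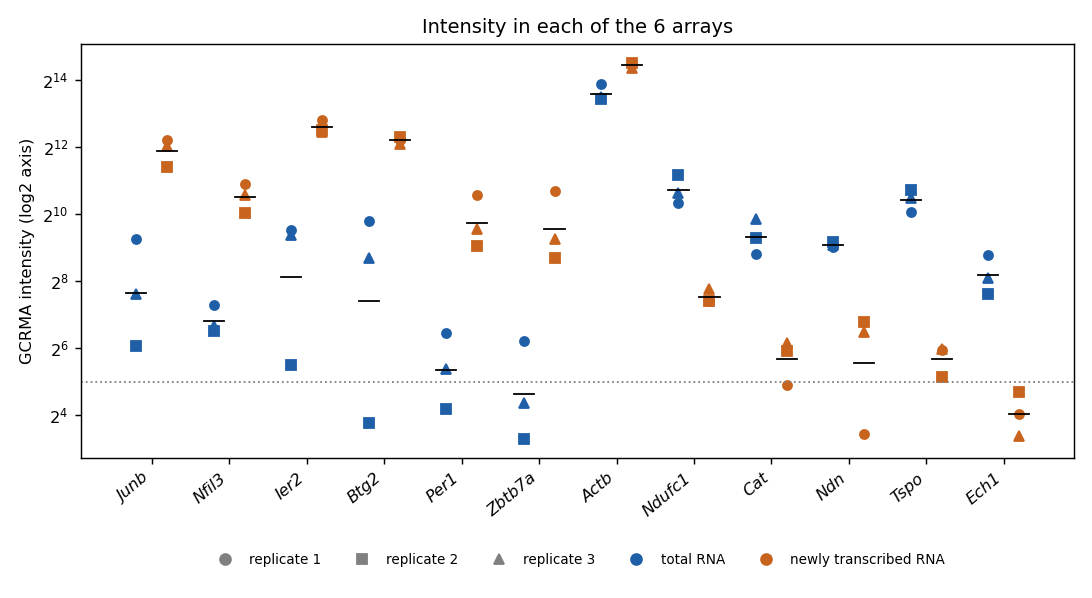
Intensity on a log2 axis of 12 genes in the 3 total RNA arrays (blue) and the 3 newly transcribed RNA arrays (orange), with the marker shape giving the replicate, a black bar the geometric mean of the group and the dotted line an intensity of 32. Total replicate 2 (blue square) was the lowest total array for Junb, Nfil3, Ier2, Btg2, Per1 and Zbtb7a, and newly transcribed replicate 1 (orange circle) the lowest new array for Cat and Ndn.

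The 15 largest increases among genes of mean log2 7 or more were Zbtb7a, Btg2, Ier2, Per1, Junb, Ier5l, Irs2, Id1, Nfil3, Brd2, Itprip, Gadd45g, Itga5, Trib1 and Cebpb, from 4.93 down to 3.46 on the log2 scale. Most encode nuclear regulators or signalling proteins: Zbtb7a a POZ zinc finger repressor, Per1 a repressor of the circadian clock, Id1 an inhibitor of basic helix-loop-helix factors, Irs2 an adaptor of the insulin receptor, and Itga5 the integrin chain that binds fibronectin. Zbtb7a read 1664, 416 and 619 in newly transcribed RNA against 73.7, 9.79 and 20.8 in total RNA, a difference of 4.93 ± 0.77. Its groups did not overlap, and 3.70 ± 0.56 remained in the 4-array fit. Another probe set of Zbtb7a gave 1.90. Ier2, an early response gene, read 7166, 5797 and 5668 against 735, 45.1 and 673, a difference of 4.46 ± 0.96 that was 3.03 ± 0.24 in the 4-array fit.

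Btg2, an antiproliferative gene of the BTG and TOB family, showed how far 1 array set the size. It read 4787, 5066 and 4376 in newly transcribed RNA, and 882, 13.7 and 415 in total RNA. Total replicate 2 lay far under its partners. The difference was 4.79 ± 1.30 (adjusted p = 0.0233) with all arrays and 2.96 ± 0.38 (adjusted p = 0.000907) in the 4-array fit, and the call ended without any single newly transcribed array (adjusted p = 0.0513 to 0.0516). Itga5 read 1863, 251 and 298 against 199, 12.7 and 33.2. Its difference of 3.57 ± 1.06 lost its call without total replicate 2, total replicate 3 or newly transcribed replicate 1, and was 1.75 in the 4-array fit (adjusted p = 0.0755).

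Total replicate 2 was the lowest total array for 15 of the 15 largest increases, against 40.9% of all probe sets tested, and newly transcribed replicate 1 was the highest of its group for 14 of 15, against 43.7%. Over all probe sets called higher these shares were 39.1% and 53.1%. The median of the 15 differences was 3.68 with all arrays, 2.95 in the 4-array fit, 2.04 in the 2F experiment and 2.47 after 30 min. All 15 were above 0 in each of these, with a range of 1.29 to 3.07 in 2F and 0.12 to 3.68 after 30 min. The part of the 2 arrays in the choice of these genes was not tested beyond these values. Unlabelled RNA was also above the same total RNA arrays, by 2.30 for Cebpb, 1.94 for Itga5, 1.47 for Zbtb7a and 1.33 for Ier5l. It was above by 1.20 to 1.22 for Junb, Btg2 and Ier2, and by less for Id1, Brd2 and Nfil3. None of these had an adjusted p under 0.05 in limma. For Per1, Irs2, Itprip, Gadd45g and Trib1 it was not above total RNA. The part of the total RNA arrays in these sizes was not tested.

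The 15 largest decreases were Tspo, Mrpl42, Emb, Cat, Pdk1, Lum, Mcts1, Immp1l, Hmgn3, Ndn, Grn, Col4a5, Lypla1, Vps28 and Vapb, from -4.74 to -3.38. Several act in mitochondria: Tspo is the translocator protein of the outer membrane, Mrpl42 a protein of the mitochondrial ribosome, Pdk1 a kinase of pyruvate dehydrogenase and Immp1l a peptidase of the inner membrane. Tspo read 61.6, 35.0 and 62.8 in newly transcribed RNA against 1070, 1695 and 1435 in total RNA. The groups lay far apart, with a difference of -4.74 ± 0.37 (adjusted p = 0.00127, the smallest of all probe sets) and -4.72 ± 0.35 in the 4-array fit. It was -4.04 ± 0.17 in the 2F experiment. Unlabelled RNA was near total RNA, at 1245, 1666 and 1188. Mrpl42 read 94.5, 105 and 84.9 against 1369, 863 and 1519 (-3.69 ± 0.34), and Grn, which encodes the lysosomal and secreted protein progranulin, 323, 270 and 365 against 2402, 5340 and 3578 (-3.50 ± 0.38). Vapb gave -3.38 ± 0.34, but another of its probe sets gave -0.16. Its unlabelled RNA was also under total RNA, with geometric means of 202 against 493 (-1.28 ± 0.25, limma, adjusted p = 0.0278).

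Newly transcribed replicate 1 was the lowest of its group for 10 of these 15 genes, against 46.1% of all probe sets tested. Ndn, an imprinted gene for a growth suppressor, read 10.9, 111 and 89.1 in newly transcribed RNA against 515, 579 and 537. Its total arrays were close together while replicate 1 of the new fraction lay far under its partners, and the difference of -3.51 ± 0.79 became -2.40 in the 4-array fit. Pdk1 (11.8, 121 and 112 against 382, 957 and 766) and Emb, a chaperone of lactate transporters (12.4, 149 and 127 against 828, 624 and 918), also had newly transcribed replicate 1 far under its partners, and their differences became -2.22 and -2.67 in the 4-array fit. Emb lost its call without total replicate 3 (adjusted p = 0.0533), and Pdk1 without that array (0.0559) or total replicate 2 (0.0509). The median of the 15 decreases was -3.55 with all arrays, -3.20 in the 4-array fit, -2.60 in 2F and -2.26 after 30 min. All 15 were below 0 in each, and the smallest in 2F was -0.62, for Lypla1, an acyl-protein thioesterase.

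The gene lists that follow were drawn up from general knowledge, but they were chosen with earlier results of these data known. Of their 1148 entries on the array 1028 were tested, a gene in several lists counting in each. Each count stands beside 14.3% higher and 19.3% lower over all genes. Genes that were low in both fractions were not tested, so a count covers the tested members of a list and not the list.

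For some genes named in these lists, every array of one fraction was under 32. The epithelial, endothelial, muscle and leukocyte markers other than Cd14 had geometric means of 3.91 to 12.2 over the arrays of a fraction. With an offset of 16 before the log2 the differences were smaller: -2.62 for Snrnp25, -3.23 for Lamtor2, -2.27 for Mrpl14, -2.18 for Nid2, -2.80 for Gstm1, -2.66 for Tm7sf2, -1.70 for Dbp and for Nfs1, 1.97 for Rora and 2.17 for Fosb. Each kept its call. Other named genes had a geometric mean under 32 in 1 fraction. In total RNA these were Zbtb7a (24.7), Zbtb39 (20.2), Arc (17.3) and Hes1 (27.9). In newly transcribed RNA they were Mgst1 (23.8), Exosc5 (30.2) and Fbh1 (31.5). Their differences also rest on low intensities, and values with the offset are not given for them.

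Subunits of AP-1 and its Maf relatives were nearly all richer in newly transcribed RNA: 10 of 11 tested were called higher and 0 lower, with a median of 2.70, and 10 of 11 in the 4-array fit. Jun read 10090, 11645 and 13061 against 2497, 1042 and 1424 (2.90 ± 0.39). Fosb, a Fos relative, read 84.0, 92.1 and 178 against 20.7, 9.08 and 9.09 (3.22 ± 0.46), and Mafg, a small Maf protein, gave 2.91 ± 0.56 (2.08 in the 4-array fit). Fos, the textbook immediate-early gene, read 2586, 4515 and 7411 against 680, 640 and 723. The 3 total arrays were close together and newly transcribed replicate 3 was the highest, for a difference of 2.70 ± 0.42. The member that was not called, named after its values were seen, was Jund, whose mRNA gave 0.85 ± 0.38 (adjusted p = 0.114).

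Among the Egr, Nr4a, Klf and Ier genes, further early response transcription factors and their partners, 23 of 25 were called higher and 0 lower (median 2.24, and 25 of 25 higher in the 4-array fit). Arc, a gene best known from neurons, read 864, 168 and 289 against 58.6, 7.71 and 11.5 (4.33 ± 0.83, and 3.08 in the 4-array fit), and Ier5l 3237, 1344 and 1105 against 328, 22.1 and 98.2 (4.24 ± 0.89, and 2.76 in the 4-array fit). Klf5, a Krüppel-like factor of proliferating cells, gave 3.44 ± 0.59, and 2.53 in the 4-array fit. Myc, the growth-promoting factor, read 4630, 3425 and 4118 against 563, 254 and 540, a difference of 3.24 ± 0.40 with no overlap. Myc total RNA differed by -5.38 ± 0.20 after 2 h of actinomycin D.

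Feedback regulators of signalling were the next group. Of 18 MAP kinase feedback genes, 14 were called higher and 0 lower (median 1.62, with 15 higher in the 4-array fit, 8 without total replicate 3 and 9 without newly transcribed replicate 2). The largest belonged to the dual-specificity phosphatases, which remove phosphate from MAP kinases. Dusp4 read 371, 370 and 406 against 61.4, 20.6 and 39.7 (3.37 ± 0.43), and Dusp5 10671, 7247 and 7300 against 1450, 533 and 741 (3.31 ± 0.43). Dusp6, the phosphatase that acts on ERK in the cytoplasm, read 4895, 7908 and 8258 against 883, 844 and 849 (2.99 ± 0.33). Its total arrays were almost equal, and the new replicate 1 was the lowest of its group, unlike for the largest increases. Dusp10 gave 2.91 ± 0.41.

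Among 18 NF-kappaB and cytokine feedback genes, 11 were called higher and 0 lower (median 1.67, with 15 in the 4-array fit and 6 without total replicate 3). Tnfaip3, the ubiquitin-editing enzyme that limits NF-kappaB signalling, read 757, 1070 and 1422 against 129, 113 and 145 (3.03 ± 0.35). Socs3, an inhibitor of cytokine receptors, read 3483, 2318 and 3167 against 387, 565 and 489 (2.63 ± 0.33). Relb gave 2.94 ± 0.64 and Bcl3 2.56 ± 0.60 (1.93 and 1.63 in the 4-array fit), both with newly transcribed replicate 1 at more than 3 times its partners, and Bcl3 lost its call without total replicate 3.

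Zfp36 encodes tristetraprolin, which binds AU-rich elements and brings mRNAs to decay. It read 2821, 3185 and 3727 against 511, 210 and 386 (3.22 ± 0.40), the largest value in a list of 44 genes of mRNA decay of which 5 were called higher and 3 lower (median 0.33, with 6 and 7 in the 4-array fit, and 3 and 2 higher without total replicates 1 and 3). The others named there were its relative Zfp36l2 at 1.88 ± 0.38 and, in the opposite direction, the exosome subunits Exosc5 at -2.10 ± 0.60 (-3.04 in the 4-array fit) and Exosc8 at -1.69 ± 0.37. Exosc5 and Exosc8 lost their calls without total replicate 3, and Exosc5 also without 3 other arrays. Another probe set of Exosc8 gave -0.12. Zfp36 and Dusp5 are shown because their promoters hold the CArG box, which 2.88% of 1251 promoters of genes called higher held, 0.88% of 1591 of genes called lower, 1.37% of 8453 of all genes tested and 1.63% of all 32851 in the table. The windows have 300 bases, 6620 of the 8038 genes tested matched to at least 1 of them, and a match is a run of letters and not a shown site. Dusp5 (chr19:53528895-53529194, plus strand) holds 2 adjoining boxes that begin 82 and 72 bases before the start, and Zfp36 (chr7:28379179-28379478, minus strand) 1 that begins 58 bases before it. The CRE octamer stood in 3.52% of promoters called higher, 2.70% called lower and 3.30% of all tested, TATAAA in 7.51%, 6.47% and 6.83%, and CCAAT in 37.1%, 42.0% and 38.2%. A CArG box can contain TATAAA.
Dusp5: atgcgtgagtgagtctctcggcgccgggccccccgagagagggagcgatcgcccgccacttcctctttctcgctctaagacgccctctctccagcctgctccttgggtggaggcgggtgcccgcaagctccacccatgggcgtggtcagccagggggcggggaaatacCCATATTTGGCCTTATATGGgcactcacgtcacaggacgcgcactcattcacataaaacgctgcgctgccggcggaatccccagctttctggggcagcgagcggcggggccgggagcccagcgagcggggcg
Zfp36: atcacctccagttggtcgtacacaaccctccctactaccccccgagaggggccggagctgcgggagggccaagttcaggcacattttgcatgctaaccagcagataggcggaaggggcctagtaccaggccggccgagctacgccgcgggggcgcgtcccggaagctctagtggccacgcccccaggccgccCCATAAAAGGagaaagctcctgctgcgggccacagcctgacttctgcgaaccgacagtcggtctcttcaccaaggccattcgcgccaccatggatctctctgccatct

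Secreted signals and the targets of TGF-beta and BMP leaned the same way. Of 22 cytokine and growth factor ligands 12 were called higher and 1 lower (median 1.66, with 17 and 2 in the 4-array fit). Lif, a cytokine of the interleukin-6 family, read 2151, 2383 and 2530 against 278, 289 and 215 (3.19 ± 0.31), with little spread in either group. Ccl7, a chemokine, gave 3.19 ± 0.83 (1.93 in the 4-array fit), with total replicate 2 at 77.1 against 887 and 676. Hbegf, a ligand of the EGF receptor, read 12232, 10050 and 9614 against 2139, 864 and 1148 (3.04 ± 0.40), and the neurotrophin gene Bdnf gave 2.89 ± 0.40. Cxcl12, a chemokine that fibroblasts make constitutively, was the member called lower, at 52.5, 130 and 112 against 428, 232 and 269 (-1.71 ± 0.44), and lost its call without total replicate 1 or 3.

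Of 18 TGF-beta and BMP targets 12 were called higher and 0 lower (median 1.65, with 13 in the 4-array fit and 7 without total replicate 3). Hes1, a repressor downstream of Notch as well, read 846, 405 and 346 against 47.1, 21.6 and 21.3 (4.14 ± 0.47). Id1 read 9094, 5138 and 6377 against 1176, 185 and 649 (3.68 ± 0.63), and its relative Id3 gave 3.38 ± 0.71. These became 2.71 and 2.15 in the 4-array fit. Snai1, a repressor of E-cadherin, gave 3.17 ± 0.77 (1.96 in the 4-array fit), with total replicate 1 at 1274 against 158 and 319, and lost its call without total replicate 3.

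The growth arrest genes of the Btg, Tob and Gadd45 families and their associates divided: 7 of 14 were called higher and 0 lower (median 1.70, with 9 and 1 in the 4-array fit). Gadd45g, a stress-induced partner of MAP kinase kinases, read 4033, 2488 and 3406 against 419, 139 and 343 (3.58 ± 0.46, and 2.94 in the 4-array fit). The polo-like kinases Plk2 and Plk3 gave 3.41 ± 0.62 and 3.19 ± 0.52, the latter 2.43 in the 4-array fit. Among 19 p53 targets 9 were called higher and 1 lower (median 0.26, with 7 and 1 in the 4-array fit, and 6 to 8 higher when any 1 array was left out). Cdkn1a, the p21 inhibitor of cyclin-dependent kinases, read 3335, 1665 and 1670 against 466, 276 and 355 (2.55 ± 0.40), and Sesn2, a stress sensor of the sestrin family, 584, 510 and 491 against 101, 43.4 and 59.6 (3.05 ± 0.38). Ccng1, cyclin G1, went the other way, at 281, 410 and 269 against 1008, 2195 and 1671 (-2.30 ± 0.39). Btg2, Plk2, Cdkn1a and Sesn2 are each in more than 1 of the lists described here.

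The circadian clock list held members at both ends. Of 16 tested, 6 were called higher and 1 lower (median 0.68, with 9 and 1 in the 4-array fit). Per1 read 1530, 531 and 749 against 87.3, 18.3 and 41.6 (4.39 ± 0.62, and 3.39 in the 4-array fit). Bhlhe40, a repressor that acts on the clock's E-boxes, read 3233, 2829 and 2201 against 469, 289 and 354 (2.90 ± 0.34), and the nuclear receptor Rora gave 2.80 ± 0.37 at low intensity. Dbp, the activator that binds the same elements as the repressor Nfil3, was called lower, at 23.7, 11.3 and 15.8 against 62.5, 116 and 98.4 (-2.47 ± 0.40), with every newly transcribed array under 32.

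Regulators of transcription and chromatin were partly called. Of 23 bromodomain proteins and P-TEFb regulators 7 were called higher and 0 lower (median 0.64, with 11 and 1 in the 4-array fit, 11 higher without newly transcribed replicate 1, and 4 without total replicate 3 or newly transcribed replicate 3). Brd2, which binds acetylated histones, read 11698, 5755 and 5990 against 1374, 263 and 556 (3.66 ± 0.60, and 2.75 in the 4-array fit). The elongation factor gene Ell gave 2.71 ± 0.40. Ccnt1 and Cdk9, the cyclin and the kinase of P-TEFb, gave 2.45 ± 0.43 and 2.01 ± 0.53, and Cdk9 was 1.32 in the 4-array fit and lost its call without total replicate 3 or newly transcribed replicate 3. Of 33 histone lysine methylases and demethylases 12 were higher and 0 lower (median 0.85, with 14 and 2 in the 4-array fit and 5 higher without total replicate 3). Kdm6a, a demethylase of the Polycomb mark, read 231, 181 and 145 against 41.2, 35.1 and 27.5 (2.41 ± 0.34), while its relative Kdm6b, at 5874, 1357 and 1110 against 721, 178 and 455, gave 2.41 ± 0.72. The 4-array fit put Kdm6a at 2.26 and Kdm6b at 1.10. Kdm6b lost its call without newly transcribed replicate 1, total replicate 2 or total replicate 3. Kdm2a gave 2.61 ± 0.54 (1.89 in the 4-array fit) and Dot1l 2.47 ± 0.60, the latter not called without total replicate 3. Other probe sets gave 0.08 and 2.02 for Kdm2a, 0.64 for Kdm6a, 1.52 and 3.28 for Kdm6b and 2.95 for Dot1l.

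Other DNA-binding families were less uniform. Of 25 Zbtb zinc fingers 12 were called higher and 0 lower (median 1.26, with 15 in the 4-array fit, 5 without total replicate 3 and 7 without newly transcribed replicate 3), led after Zbtb7a by Zbtb39 at 3.60 ± 0.47, Zbtb43 at 2.61 ± 0.42 and Zbtb21 at 2.31 ± 0.36. The 2 other probe sets of Zbtb21 gave only 0.09 and 0.13. Of 26 homeobox and forkhead factors 4 were higher and 0 lower (median 0.58, with 7 and 2 of 25 in the 4-array fit and 14 and 2 of 26 in 2F). The 4 were the forkhead genes Foxc2, which read 1626, 1095 and 1374 against 343, 371 and 176 (2.26 ± 0.39), Foxf2 (2.04 ± 0.42), Foxc1 (1.64 ± 0.39) and Foxj3 (1.57 ± 0.32). Foxc1 lost its call without total replicate 3 or newly transcribed replicate 3. Among 34 F-box proteins, the substrate adaptors of a ubiquitin ligase, 9 were higher and 3 lower (median 0.35, with 10 and 7 in the 4-array fit and 5 higher without total replicate 3). Fbxo30 gave 2.56 ± 0.37, Fbxo5, an inhibitor of the anaphase-promoting complex, 2.35 ± 0.30, and Fbxw2 2.03 ± 0.47, while the helicase gene Fbh1 gave -2.20 ± 0.39. The other probe sets of Fbxw2 ran from -0.08 to 1.67.

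RNA processing split by kind of component. The Clk and Dyrk kinases and cyclin L genes, which act on SR splicing proteins, were called higher in 8 of 11 and lower in 0 (median 1.76, with 9 in the 4-array fit). Ccnl1 read 12608, 9740 and 11008 against 1451, 1096 and 1126 (3.19 ± 0.31), among the tightest groups of all. Clk1 read 2877, 4779 and 4938 against 845, 967 and 820 (2.22 ± 0.34), Clk4 gave 2.31 ± 0.38 and Dyrk3 2.59 ± 0.33. The SR and hnRNP proteins themselves were called at near or under the shares of all genes, with 5 of 32 higher and 2 lower. Their median was 0.20, with 5 and 1 called in the 4-array fit, and 3 higher without total replicate 3 or newly transcribed replicate 3. Hnrnpa1 gave 1.76 ± 0.33, but its 2 other probe sets gave -0.28 and -0.24, and the nuclear speckle protein gene Son gave 1.74 ± 0.35 with 6 other probe sets from -0.84 to 0.80. Rbm39 gave 1.58 ± 0.33. The core proteins of small nuclear ribonucleoproteins went the opposite way, with 0 of 19 higher and 6 lower (median -0.89, with 10 lower in the 4-array fit, and 3 and 1 without total replicates 1 and 3). Snrnp25, of the minor spliceosome, read 6.83, 14.5 and 12.1 against 217, 93.5 and 162 (-3.81 ± 0.44). Snrnp27 gave -1.75 ± 0.34.

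Noncoding RNAs of the nucleus and hosts of small nucleolar RNAs were called higher in 9 of 14 and lower in 0 (median 1.26, with 10 in the 4-array fit, and 5 without total replicate 3 or newly transcribed replicate 2 or 3). The hosts carry the small RNAs in their introns. Snhg12 read 1522, 1529 and 1127 against 268, 105 and 207 (2.94 ± 0.41), and Snhg7 and Snhg17 gave 2.89 ± 0.36 and 2.66 ± 0.39. Neat1, the RNA that builds paraspeckles, read 4651, 4864 and 5147 against 1376, 760 and 1046 (2.24 ± 0.34).

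**Figure D4:**
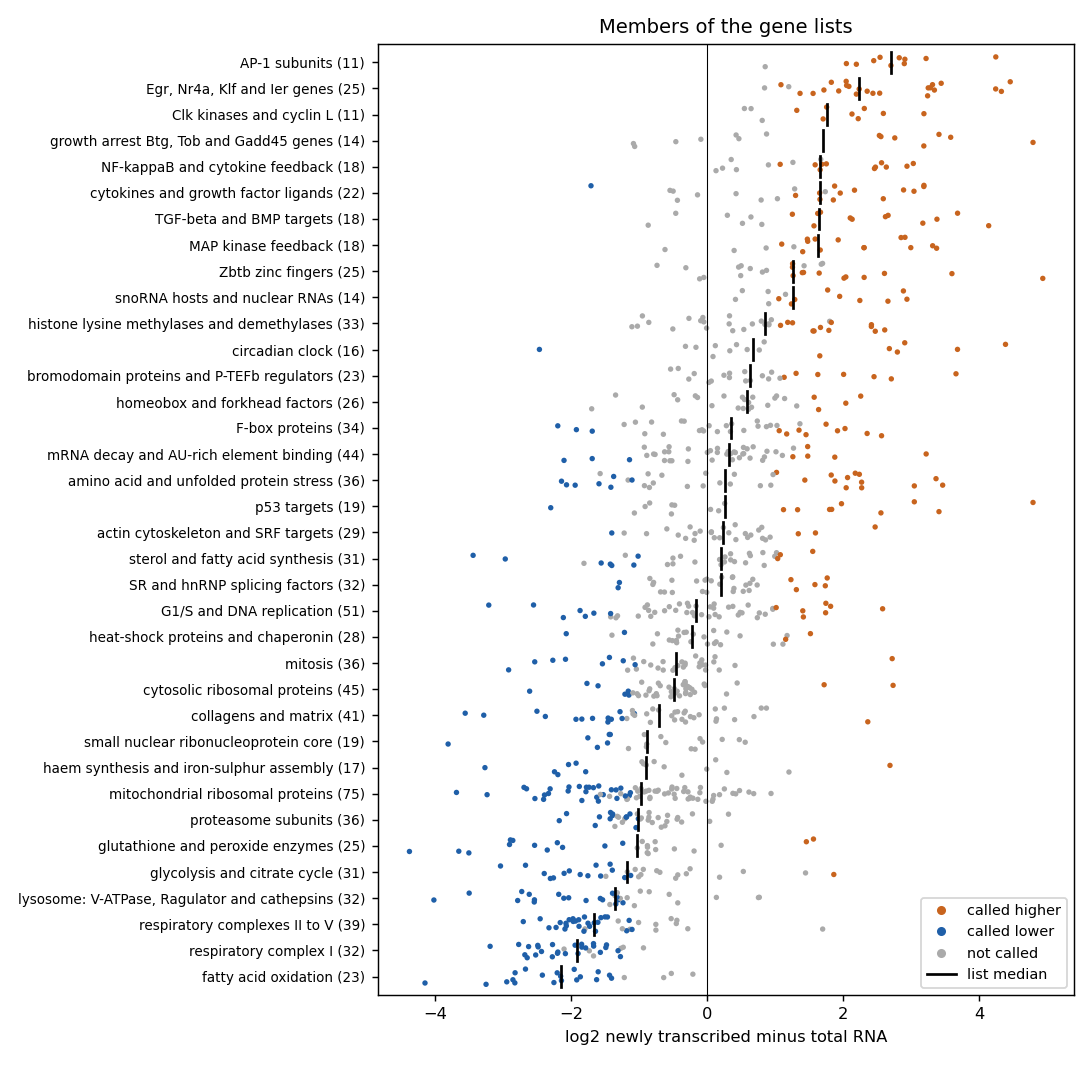
Difference in log2 intensity between newly transcribed and total RNA (x axis) for every tested member of 36 gene lists, with the number tested in brackets, 1 point for each gene, orange where called higher, blue where called lower and grey where not called, and a black bar at the list median. Medians run from 2.70 for the AP-1 subunits to -2.14 for fatty acid oxidation.

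Mitochondrial energy metabolism held the 3 lists with the lowest medians. Of 32 subunits of respiratory complex I, which takes electrons from NADH, 26 were called lower and 0 higher (median -1.92), all 32 in the 4-array fit and 19 without total replicate 3. The median was -2.28 in the 2F experiment. Ndufc1 read 171, 168 and 217 in newly transcribed RNA against 1292, 2296 and 1599 in total RNA (-3.19 ± 0.34), and Ndufc2 387, 589 and 545 against 2496, 4990 and 3174 (-2.77 ± 0.37). Ndufb6 and Ndufa6 gave -2.68 ± 0.39 and -2.65 ± 0.40. The tested members ran from -3.19 to -0.94, so none was richer in the new fraction.

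Of 39 subunits of complexes II to V 27 were called lower and 0 higher (median -1.66, with 35 lower and 1 higher in the 4-array fit and 16 lower without total replicate 3). Sdha, the flavoprotein of succinate dehydrogenase, read 129, 132 and 138 against 604, 576 and 849 (-2.33 ± 0.31). The ATP synthase genes Atp5o, Atp5e and Atp5c1 gave -2.70 ± 0.51, -2.46 ± 0.61 and -2.22 ± 0.32, the first 2 of them -3.49 and -3.52 in the 4-array fit. Total replicate 2 lay under its partners for Atp5o, at 518 against 1456 and 1385, and Atp5e lost its call without total replicate 1, total replicate 3 or newly transcribed replicate 3. Atp5c1 had another probe set at 2.50.

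Fatty acid oxidation had the lowest median of the lists, -2.14, with 19 of 23 called lower and 0 higher, 23 of 24 lower in the 4-array fit and 13 lower without total replicate 3. Besides Ech1, Etfb and Etfa, the 2 chains of the flavoprotein that takes up electrons from the pathway, read 63.0, 39.7 and 81.3 against 691, 396 and 640 (-3.25 ± 0.40) and 159, 136 and 154 against 1313, 756 and 1271 (-2.86 ± 0.34). Hsd17b4, the multifunctional enzyme of peroxisomes, gave -2.95 ± 0.37. Of 31 genes of glycolysis and the citrate cycle 15 were called lower and 1 higher (median -1.17, with 8 lower without total replicate 3 and 9 without newly transcribed replicate 3). Mdh1, the cytosolic malate dehydrogenase, read 150, 505 and 577 against 2169, 3396 and 3288 (-3.04 ± 0.53, and -2.31 in the 4-array fit), and Idh1 147, 221 and 187 against 1100, 1391 and 1020 (-2.67 ± 0.32). Hk2, the inducible hexokinase that starts glycolysis, was the exception, at 2751, 3246 and 2870 against 709, 1024 and 735 (1.86 ± 0.31).

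Detoxification and lysosomal genes were also low. Of 25 glutathione and peroxide enzymes 12 were called lower and 2 higher (median -1.03, with 18 and 2 in the 4-array fit). Mgst1, a membrane-bound glutathione transferase, read 10.0, 38.6 and 34.7 against 469, 438 and 585 (-4.38 ± 0.52), and Gstm1 28.0, 18.1 and 20.6 against 395, 156 and 246 (-3.50 ± 0.41). Cat, the catalase gene, read 30.1, 61.0 and 71.4 against 448, 624 and 930 (-3.65 ± 0.44). Gclc, the catalytic subunit of the enzyme that limits glutathione synthesis, went the other way, at 744, 778 and 866 against 301, 238 and 271 (1.56 ± 0.30). Of 32 lysosomal genes 19 were lower and 0 higher (median -1.35, with 27 in the 4-array fit and 11 without total replicate 3). Lamtor2, of the Ragulator complex that anchors mTORC1 to lysosomes, read 20.2, 19.8 and 18.3 against 446, 181 and 385 (-4.02 ± 0.40), with all new arrays under 32. The cathepsin genes Ctsa and Ctsz gave -2.79 ± 0.48 (-3.38 in the 4-array fit) and -2.73 ± 0.58.

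In haem synthesis and iron-sulphur assembly 6 of 17 were lower and 1 higher (median -0.89, with 10 of 18 lower in the 4-array fit). Urod, a decarboxylase of haem synthesis, read 205, 65.1 and 70.7 against 698, 1258 and 957 (-3.27 ± 0.50). The iron-sulphur genes Nfs1 and Nfu1 gave -2.24 ± 0.36 and -2.19 ± 0.47. Hmox1, the inducible enzyme that degrades haem, was the member called higher, at 1268, 743 and 632 against 250, 78.9 and 113 (2.69 ± 0.49, and 2.03 in the 4-array fit). Of 31 genes of sterol and fatty acid synthesis 3 were higher and 7 lower (median 0.20, with 2 to 4 lower without total replicate 1 or 3 or newly transcribed replicate 3). Tm7sf2 and Ebp, enzymes late in cholesterol synthesis, read 18.6, 21.2 and 17.0 against 177, 228 and 213 (-3.44 ± 0.30) and 26.2, 77.6 and 57.3 against 567, 239 and 413 (-2.97 ± 0.50), whereas Srebf1, a transcription factor of the pathway, gave 1.55 ± 0.47 and lost its call in the 4-array fit and without 4 of the arrays singly.

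Protein synthesis and turnover machinery lay nearer to the middle. Of 75 mitochondrial ribosomal proteins 28 were called lower and 0 higher (median -0.97, with 46 lower and 2 higher in the 4-array fit and 14 lower without total replicate 3). Mrpl14 read 6.41, 18.9 and 19.7 against 241, 46.7 and 177 (-3.24 ± 0.68), while Mrpl23 and Mrpl13 gave -2.69 ± 0.44 and -2.66 ± 0.44. The cytosolic ribosomal proteins had 6 of 45 called lower and 2 higher (median -0.48, with 16 and 2 in the 4-array fit and 2 lower without total replicate 3), 10 lower without newly transcribed replicate 1, and 2 to 3 lower without newly transcribed replicate 2 or 3. In the 2F experiment 19 of 45 were lower. Only 45 of the 81 listed had a probe set of their own symbol on the array. Rpl14 gave -2.61 ± 0.32, and Rps27l -1.77 ± 0.32. The members called higher were Rpl12 and Rps25, at 1335, 2133 and 2065 against 369, 173 and 313 (2.73 ± 0.40) and at 5243, 2518 and 2387 against 771, 1313 and 872 (1.72 ± 0.41). Rps25 lost its call without total replicate 3. Each of the 2 was read from a single tested probe set, and after 2 h of actinomycin D total RNA differed by -5.13 for Rpl12 and by -0.20 for Rps25.

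Of 36 proteasome subunits 13 were called lower and 0 higher (median -1.02), with 22 of 37 in the 4-array fit and 2 to 8 without total replicate 1 or 3 or newly transcribed replicate 2 or 3. Psme1, an activator of the proteasome, read 172, 133 and 104 against 866, 348 and 584 (-2.07 ± 0.41). Psma1 gave -2.17 ± 0.45 by its strongest probe set and 3.85 by another, an opposite call within 1 gene. Such opposite calls were found in 61 of the 3503 genes with more than 1 tested probe set, and 790 had at least 2 probe sets called one way and none the other.

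Stress genes, like all genes, were called in both directions, those of the heat-shock list at less than the shares of all genes. Of 36 genes of the amino acid and unfolded protein responses 13 were called higher and 7 lower (median 0.26, with 16 and 9 in the 4-array fit). The largest increases were Cebpb, a bZIP factor, at 17040, 5730 and 7724 against 2598, 262 and 828 (3.46 ± 0.79, and 2.18 in the 4-array fit), Ppp1r15a and Ppp1r15b, which direct dephosphorylation of eIF2 alpha, at 3.36 ± 0.44 and 2.27 ± 0.34, and Sesn2. The largest decrease was Canx, the endoplasmic reticulum chaperone calnexin, at 655, 1155 and 999 against 4077, 4474 and 3561 (-2.14 ± 0.34). Of 28 heat-shock and chaperonin genes 2 were higher and 2 lower (median -0.22), with 0 higher without total replicate 3 or newly transcribed replicate 2 or 3, and 1 without total replicate 1 or 2. Bag1 gave -2.07 ± 0.33 and Hspe1 -1.22 ± 0.32, Dnajb1 read 3989, 4920 and 5015 against 1013, 2448 and 1689 (1.52 ± 0.39), and Bag3 gave 1.15 ± 0.37. Bag3 lost its call without any 1 of the 6 arrays, and Dnajb1 without 4 of them singly.

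Cell cycle genes were called at near or under the shares of all genes, 14.3% higher and 19.3% lower. Of 36 mitotic genes 8 were lower and 1 higher (median -0.45, with 2 to 5 lower without total replicate 1 or 3 or newly transcribed replicate 2 or 3). Ccnb2, cyclin B2, read 27.7, 55.9 and 50.5 against 373, 303 and 299 (-2.92 ± 0.37), and Pttg1, securin, gave -2.53 ± 0.53 (-1.92 in the 4-array fit), whereas the phosphatase gene Cdc25a read 643, 702 and 479 against 110, 98.5 and 69.7 (2.72 ± 0.34). Of 51 genes of G1/S and replication 7 were higher and 7 lower (median -0.16, with 9 and 12 in the 4-array fit, and 3 to 4 higher without total replicate 1 or 3 or newly transcribed replicate 2 or 3). Rpa3, of the single-strand binding complex, read 73.5, 142 and 127 against 1009, 906 and 1149 (-3.21 ± 0.36), and Rfc4, of the clamp loader, gave -2.55 ± 0.43. Tyms, thymidylate synthase, was the largest increase, at 217, 312 and 253 against 37.1, 56.6 and 38.2 (2.58 ± 0.33).

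Among the fibroblast's own products, collagens and matrix genes were called lower at more than the 19.3% of all genes with all 6 arrays. The fibroblast markers and the actin genes were not. Of 41 collagens and matrix genes 13 were lower and 1 higher (median -0.71, with 22 lower in the 4-array fit, and 6 to 8 without total replicate 1 or 3 or newly transcribed replicate 2 or 3). The small proteoglycans lumican (Lum) and decorin (Dcn) read 43.8, 119 and 87.4 against 915, 852 and 955 (-3.56 ± 0.41) and 910, 727 and 545 against 4117, 3445 and 3579 (-2.38 ± 0.33). Nid2, a basement membrane protein, read 10.1, 12.7 and 10.0 against 119, 89.6 and 111 (-3.28 ± 0.31), and Postn gave -2.50 ± 0.34. Thbs1, thrombospondin 1, was called higher, at 5660, 16399 and 17683 against 3964, 1193 and 2557 (2.36 ± 0.58), and lost its call without total replicate 3 or newly transcribed replicate 2 or 3. Of 12 fibroblast markers 1 was called lower, Col3a1 at -1.41 ± 0.34, and not without newly transcribed replicate 2 or 3, while 3 were called lower in the 4-array fit, 2 without newly transcribed replicate 1 and 4 in 2F. Of 29 actin cytoskeleton genes and SRF targets 3 were higher and 1 lower (median 0.24, with 2 and 5 in the 4-array fit, and 1 higher without total replicate 2 or 3 or newly transcribed replicate 2 or 3), led by the myosin light chain gene Myl6 at 500, 417 and 571 against 129, 60.5 and 89.4 (2.47 ± 0.37). Actb, the reference gene for cytoplasmic actin, read 23247, 23505 and 20942 against 15030, 11044 and 11570. These groups did not overlap, but 0.86 ± 0.31 did not pass the test (adjusted p = 0.0592), and quantile normalization put it at 1.00 with an adjusted p of 0.0342. Cd14 was the 1 leukocyte marker tested, at 199, 198 and 163 against 65.5, 50.1 and 85.0 (1.51 ± 0.33).

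The calls were next set beside arrays that share no sample with these 6. Of 1132 genes called higher here and also tested in the 2F experiment, 939 (83.0%) were called higher there, 60.9% of its own 1542 (19.4% of the 7965 genes tested in both). Of 1542 called lower, 1127 (73.1%) were called lower there, 65.6% of its 1717 (21.6%), and 0 genes were called in opposite directions. After 30 min at 500 µM, a shorter time at a higher dose, 710 of 1123 (63.2%) were called higher, 61.8% of the 1148 called there (14.5% of genes), and 1186 of 1532 (77.4%) lower, 52.9% of the 2244 called there (28.4%), again with 0 opposite. Across 15155 probe sets, which share probe sequences and are not independent, the differences of the 2 experiments at 60 min correlated at r = 0.855 (Spearman's rho = 0.859), and at 0.923 (0.928, over 15251) in the 4-array fit. With 30 min r was 0.797 (rho = 0.803).

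**Figure D5:**
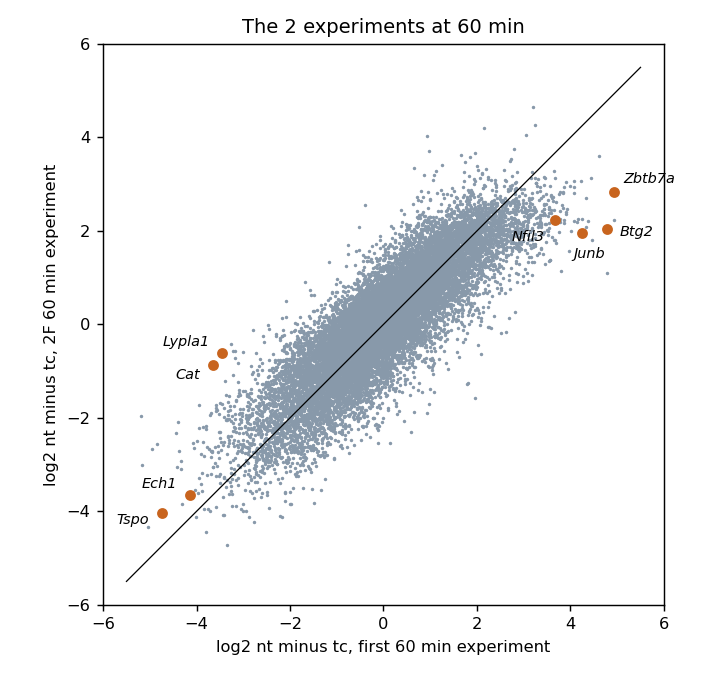
Difference in log2 intensity between newly transcribed (nt) and total (tc) RNA in the first 60 min experiment (x axis) and in the 2F experiment (y axis), 1 grey point for each of 15155 probe sets, with 8 named genes in orange and the line of equal values. Tspo and Ech1 lie near the line, Junb, Btg2, Zbtb7a and Nfil3 lie under it, and Cat and Lypla1 above it.

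Blocking transcription gave the complementary reading. Of 906 genes called higher in newly transcribed RNA and tested after 2 h of actinomycin D, 464 (51.2%) were called lower in total RNA after the drug, 53.4% of the 869 genes so called (11.5% of 7585). Of the 1547 called lower in newly transcribed RNA, 4 (0.259%) were. After the drug 3 genes (0.0396%) were called higher, none of them called here. The differences correlated at r = -0.581 (rho = -0.620) over 13659 probe sets. Of the MAP kinase feedback genes tested after the drug 11 of 14 were called lower, of the TGF-beta and BMP targets 10 of 15 and of the AP-1 subunits 4 of 8, against 0 of 32 for complex I, 0 of 23 for fatty acid oxidation and 0 of 36 for the proteasome. Further lists with many genes called higher here gave 13 of 20 for the Egr, Nr4a, Klf and Ier genes and 11 of 19 for the Zbtb zinc fingers. The growth arrest genes gave 7 of 12, NF-kappaB and cytokine feedback 8 of 15 and Clk kinases and cyclin L 5 of 10. Shares were smaller for histone lysine methylases and demethylases (11 of 30), clock genes (4 of 11), bromodomain proteins and P-TEFb regulators (8 of 23) and p53 targets (6 of 18). They were also smaller for amino acid and unfolded protein stress (12 of 36), cytokine and growth factor ligands (5 of 18) and snoRNA hosts and nuclear RNAs (4 of 13). Btg2 and Fbxw2, both called higher here, were not lower after the drug, at 0.56 ± 0.13 and 0.62 ± 0.12. Ccl7 and Neat1 changed little, at -0.09 ± 0.27 and -0.25 ± 0.15.

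The difference between the 2 experiments at 60 min was tested as an interaction. Of 15879 probe sets 4 (0.0252%) were called with all 12 arrays, and 2128 had an unadjusted p below 0.05. Without newly transcribed replicate 1 and total replicate 2 of the first experiment 648 of 15964 (4.06%) were called, 262 higher and 386 lower in the first. None of Junb, Nfil3 and Ech1 was called in either, with first minus 2F at 2.29 ± 0.84 (adjusted p = 0.299), 1.44 ± 0.39 (0.198) and -0.49 ± 0.51 (0.627) on all arrays. Without the 2 arrays the values were 1.33, 1.09 and -0.77, with adjusted p of 0.192, 0.0868 and 0.402. Cat, whose difference was -0.87 in the 2F experiment against -3.65 here, was called without the 2 arrays at -2.42 ± 0.42 (adjusted p = 0.0138) but not with all arrays (-2.78, 0.0782). Among genes of mean log2 7 or more, the other largest lower values called without the 2 arrays were Xdh, the purine enzyme xanthine dehydrogenase, at -3.45 ± 0.33 and the mannosidase gene Man2a2 at -3.31 ± 0.40. The growth factor gene Igf2 gave -2.90 ± 0.39 and Mxra7 -2.52 ± 0.23. The higher ones were Snhg3 at 1.69 ± 0.24, the mRNA export adaptor Alyref at 1.67 ± 0.26, Tsc22d3 at 1.56 ± 0.37, Sp3 at 1.52 ± 0.38 and Thbs1 at 1.41 ± 0.27. With all arrays the lower ones were -2.18, -2.85, -2.19 and -1.87 in this order, and the higher ones 0.85, 2.39, 1.53, 1.12 and 1.36. None was then called (limma, adjusted p = 0.126 to 0.485). For Mxra7 the newly transcribed array left out read 492 against 94.2 and 69.4, and the arrays kept for Xdh read 13.1 and 24.6.

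Half-lives in hours could not be settled from this experiment. The line of unlabelled over total on newly transcribed over total RNA, which sets the share of new RNA, had a slope of -0.033 over 9047 probe sets and gave a median half-life of 28.9 h, but 14.1 h without newly transcribed replicate 1 and 11.4 h with the total RNA of the 2F experiment in both ratios. The order of genes by newly transcribed over total RNA needs no such scale, and no half-life of a single gene is given.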

How the data were processed

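RNA of NIH-3T3 cells was extracted with Trizol and hybridised after one-cycle labelling, per the labels' protocols. The authors deposited linear intensities, for which the submitters' processing notes name GCRMA without a version. The genome build is not given in the sources used here. Values were turned into log2. Of 31451 probe sets, 61 controls stayed out of the tests, and the platform annotation paired 25031 others with a single gene symbol. The test was lmFit followed by eBayes (limma 3.58.1, R 4.3.3) on the 6 arrays with the fraction as sole factor, with Benjamini-Hochberg adjustment over all probe sets tested. The fit was tested on simulated data. Detection calls were not used here. Precision is limited by the number of arrays, which have no read depth.

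Replicate numbers are shared between the fractions, and the departures from the group mean correlated at 0.302, 0.147 and 0.176 between arrays of one number. The numbers were taken to pair the arrays only in the replicate block, which was an alternative. The main test, its errors and its p-values did not use this pairing. It comes from the data, not from the labels, and arrays of unlike number were not compared in this way.

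Named genes were the 15 largest called increases and decreases that had 1 symbol, no overlap and a mean log2 from 7 up, Junb, Nfil3 and Ech1, up to 4 largest called members of each list, the largest called member against a list's direction, up to 5 called differences from the 2F experiment each way, and Fos, Myc and Actb as reference. The members and lists were chosen with earlier results of these data known. Alternatives were quantile normalization, median centring, other filters, an offset of 16, an intensity trend, all 9 arrays of the experiment, the replicate block, each array left out, and both doubted arrays left out.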

Additional observations from a re-analysis of the deposited data

Results flagged for a closer look

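Sfrp1, 1439330_at, Steap2 and Anxa1 were the 4 probe sets whose enrichment differed between the first and the 2F experiment by the interaction test on all 12 arrays. Each was taken as a probe set, whether or not it was the one read for its gene. Sfrp1, which encodes a secreted Wnt antagonist, was called by its probe set 1428136_at. It read 20.3, 16.9 and 17.3 in newly transcribed RNA and 92.9, 130 and 78.1 in total RNA here. In 2F it read 50.4, 45.7 and 42.8 and 48.7, 52.0 and 48.8. First minus 2F was -2.33 ± 0.30 (limma, adjusted p = 0.0382) and -2.21 without both arrays that stood apart. The unnamed 1439330_at gave -2.07 ± 0.27 (adjusted p = 0.0382), with 102.68 to 117.84 in new and 19.9 to 20.4 in total RNA of 2F, and 50.1 to 69.8 and 44.9 to 54.8 here. One of 5 probe sets of Steap2, a metalloreductase, 1442359_at, read 63.4 to 67.6 in new and 166 to 210 in total RNA here, and 216 to 229 and 171 to 193 in 2F, a difference of -1.78 ± 0.24 (adjusted p = 0.0413). The probe set with the highest mean for Steap2 gave -1.90 here and -1.36 in 2F, a difference of -0.54 that was not called (adjusted p = 0.475). Anxa1, annexin A1, gave 2.50 ± 0.33 by its probe set 1444016_at (adjusted p = 0.0382). It read 206 to 221 in new and 15.3 to 27.4 in total RNA here. In 2F it read 24.2 to 31.6 and 12.9 to 14.6, with 5 of the 6 arrays below 30. This probe set passed the filter on the mean only through the new arrays of the first experiment, as all others lay under 32. It was too low to be tested in 2F alone, so nothing is concluded from it about the gene. All 4 lost their calls with the replicate block or without any single 2F array.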

How the results depend on the processing

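Of 169 named genes called, 0 changed direction under any alternative. The call was lost for 33 with no filter on the mean, for 6 without both doubted arrays, for 1 (Hnrnph2) with quantile normalization, and for 30 without total replicate 3, 18 without newly transcribed replicate 3 and 8 to 13 without any other array. Called probe sets were 1573 higher and 1524 lower at a mean log2 of 7 or more, and ran from 1395 to 3056 higher and 1092 to 2831 lower when 1 array was left out, and to 3605 and 3512 when both doubted arrays were. Total replicate 3 gave the lowest count in both directions. Other settings gave 2362 to 3184 higher and 2084 to 3361 lower. The replicate block gave 3184 higher and 2995 lower and changed no call of a named gene between newly transcribed and total RNA. Of 38 lists, the count moved by more than 1.5 times for 23 without total replicate 3, 14 without newly transcribed replicate 3, 9 without both doubted arrays and 2 with the block. The difference from 2F had 1 probe set called higher and 3 lower. It had 145 and 152 with no filter, 0 and 1 at a mean log2 of 7 or more, 1 and 0 with quantile normalization, 0 and 1 with the replicate block, 0 to 131 higher and 0 to 174 lower when 1 array was left out, and 262 and 386 without both. For these the cause was not tested. The median half-life of 28.9 h became 14.1 h without newly transcribed replicate 1, 24.9 h by total least squares and 11.4 h with the 2F total RNA, an alternative added after seeing the data. With the filter at a mean log2 of 9 the slope was above 0 and no half-life could be had. With 3 arrays a group the interval of a difference is wide, so a gene not called here was not shown to be equal in both fractions.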
